A study of Mus musculus with 8 samples.

Results

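The genes described here encode the MHC class I molecule of the mouse: 2 classical heavy chains (H2-K1 and H2-D1), 4 non-classical heavy chains (H2-Q4, H2-Q7, H2-T22 and H2-T23) and the light chain that all of them need, beta-2-microglobulin (B2m). They were taken by gene name from the deposited table, in which all 7 were present among 22911 genes, and all 7 passed the filter on low counts. RNA came from epithelial cells of the cheek lining of adult C57BL/6 mice, an inbred strain. The germ-free group (libraries germ-free 1 to 4) came from mice raised without microorganisms, and the SPF group (libraries SPF 1, 3, 4 and 5) from specific pathogen-free mice with a resident microbiota. Mice of both groups were untreated; the labels give the age only as adult, and the sort gate, the hour of sampling and the housing of the groups are not given in the sources used here. Each group held 4 libraries, so n = 4 throughout. The labels number the samples of a group but do not say how many animals or litters each came from, so p-values measure the spread between these samples only.

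A class I molecule is a heavy chain folded around a short peptide and held together by B2m. Proteasomes cut the peptides, the TAP transporter moves them into the endoplasmic reticulum, and without peptide or B2m most heavy chains do not reach the cell surface. The classical chains H2-K and H2-D show peptides of nearly all cell proteins to CD8 T cells. Non-classical chains vary less between individuals and have narrower roles. Transcription of the classical genes is driven by NF-kappa B at an upstream enhancer, by interferon regulatory factors at an interferon-response element, and by NLRC5, a transactivator recruited to the X and Y boxes. Epithelial cells carry class I molecules at rest and make more of them when exposed to interferon.

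Libraries held 10430507 to 15524731 gene counts in the germ-free group and 10260264 to 14730960 in the SPF group. Levels are given as CPM, counts scaled to a common library size with TMM factors (trimmed mean of M values). Replicates of a group differed by 13.95 to 39.1 times the counting noise (chi-square per degree of freedom over genes), so no library repeated another. Epithelial markers were abundant in every library: the 10 listed ones summed to 35533 to 44912 CPM in germ-free and 41530 to 51538 CPM in SPF libraries. Library germ-free 3 stood apart by fibroblast markers, whose 8 genes summed to 651 CPM there, against 67.1 to 117 CPM in the other germ-free libraries and 34.1 to 70.1 CPM in SPF libraries. Dcn alone was at 28.4 to 41.0 CPM in the libraries other than germ-free 3. Col1a1 was at 5.59, 9.63, 82.1 and 8.08 CPM in germ-free libraries 1 to 4, against 0.204 to 4.28 CPM in SPF libraries. Of 6 fibroblast genes tested it alone had groups without overlap, which 942 of 15098 tested genes had in that direction. The 7 endothelial markers summed to 11.3 to 109 CPM in germ-free and 4.22 to 10.8 CPM in SPF libraries, without overlap. Values without germ-free 3 are given beside the main results, though the other germ-free libraries also exceeded every SPF library in endothelial markers. Because RNA was taken from pools of cells, fewer cells with high class I expression and less class I RNA per cell cannot be told apart.

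The promoter sequences are shown so that the members can be compared at the elements named above. RefSeq windows (GRCm38.p6) were found for all 7 genes, and the 200 bases before each start site were searched on both strands. Capitals mark the letters searched for, and all sequences are written 5′ to 3′ on the strand of the gene. Shown are both classical genes, the non-classical genes H2-Q7 and H2-T22, and B2m. Their positions are chr17:34000348-34000547 (minus strand) for H2-K1, chr17:35262894-35263093 (plus strand) for H2-D1, chr17:35438955-35439154 (plus strand) for H2-Q7, chr17:36042743-36042942 (minus strand) for H2-T22 and chr2:122147487-122147686 (plus strand) for B2m.
H2-K1: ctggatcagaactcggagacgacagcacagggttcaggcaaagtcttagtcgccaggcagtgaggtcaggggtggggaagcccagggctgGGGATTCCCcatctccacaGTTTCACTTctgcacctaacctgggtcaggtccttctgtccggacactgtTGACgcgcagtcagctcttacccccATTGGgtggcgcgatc
H2-D1: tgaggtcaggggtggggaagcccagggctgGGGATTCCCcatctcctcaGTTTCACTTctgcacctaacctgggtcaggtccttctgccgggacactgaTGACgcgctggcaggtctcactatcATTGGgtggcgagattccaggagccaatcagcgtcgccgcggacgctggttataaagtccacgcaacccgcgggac
H2-Q7: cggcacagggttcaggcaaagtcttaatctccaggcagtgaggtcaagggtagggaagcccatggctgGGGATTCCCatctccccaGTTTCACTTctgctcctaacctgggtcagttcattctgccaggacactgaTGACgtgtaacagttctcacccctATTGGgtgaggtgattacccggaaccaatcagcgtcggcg
H2-T22: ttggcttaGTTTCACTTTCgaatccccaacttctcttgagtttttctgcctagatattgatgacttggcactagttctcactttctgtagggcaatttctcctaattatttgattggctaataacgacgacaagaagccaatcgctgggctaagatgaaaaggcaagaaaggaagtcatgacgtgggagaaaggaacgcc
B2m: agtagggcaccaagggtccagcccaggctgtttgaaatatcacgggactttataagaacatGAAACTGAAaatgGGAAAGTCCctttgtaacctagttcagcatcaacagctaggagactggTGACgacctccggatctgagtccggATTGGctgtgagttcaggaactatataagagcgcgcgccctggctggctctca

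In the H2-K1 window the first capitals are the kappa B letters of enhancer A (GGGATTNCC), the next the class I interferon element (GTTTCACTT, the opposite strand of AAGTGAAAC), and the last pair the X and Y boxes (TGAC and ATTGG, 20 or 21 bases apart). H2-K1, H2-D1, H2-Q4 and H2-Q7 held all 3 in this order. The kappa B letters were in 4 of the 7 windows, against 0.662% of 27025 mouse promoters of the same length. The class I interferon element was in 5 of 7 (the 4 genes and H2-T22), against 0.259% of promoters. The X and Y pair was in 5 of 7 (the 4 genes and B2m), against 0.348%. B2m held another kappa B form, GGACTTTCC on the opposite strand, found in 0.241% of promoters. B2m, H2-T22 and H2-T23 held the general interferon-stimulated response element GAAANNGAA, found in 5.62% of promoters. In H2-T22 it overlapped the class I form. H2-T23 held that element alone among the letters searched. The letters were chosen with these promoters in view, so the shares describe the windows and test nothing, and a match is not a site of binding.

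All 7 members had lower mean levels in germ-free than in SPF libraries, and 1 of them, H2-D1, passed the test across all genes. The log2 fold changes (germ-free over SPF) ran from −2.03 in H2-Q7 to −0.64 in H2-T23, with a median of −0.95, against a median of 0.02 over all 15098 genes tested. With the quasi-likelihood test of edgeR, adjusted by the Benjamini-Hochberg method, 1 of 7 members fell at an adjusted p under 0.05, where 2.33% of all tested genes did. An unadjusted p under 0.05 was reached by 6 of 7, all but B2m, and by 19.5% of all tested genes in either direction. DESeq2's Wald test with the same adjustment called 6 of 7 lower (4.3% of the genes it tested) and limma voom with quality weights called 7 of 7 (3.61%). The weighted fit of limma voom also put all 7 log2 fold changes further below 0 than edgeR did, for example −1.45 against −1.12 for B2m. The authors' deposited table called 6 of 7 lower in germ-free mice (2.63% of its genes), again all but B2m. For 4 members the groups did not overlap, with every germ-free library below every SPF library, which held for 6.84% of all tested genes. The members' number of calls thus turned on the tool, while the direction was the same in every fit that was run. All fits drew on the same libraries, so the shared direction is not separate support.

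**Figure D1:**
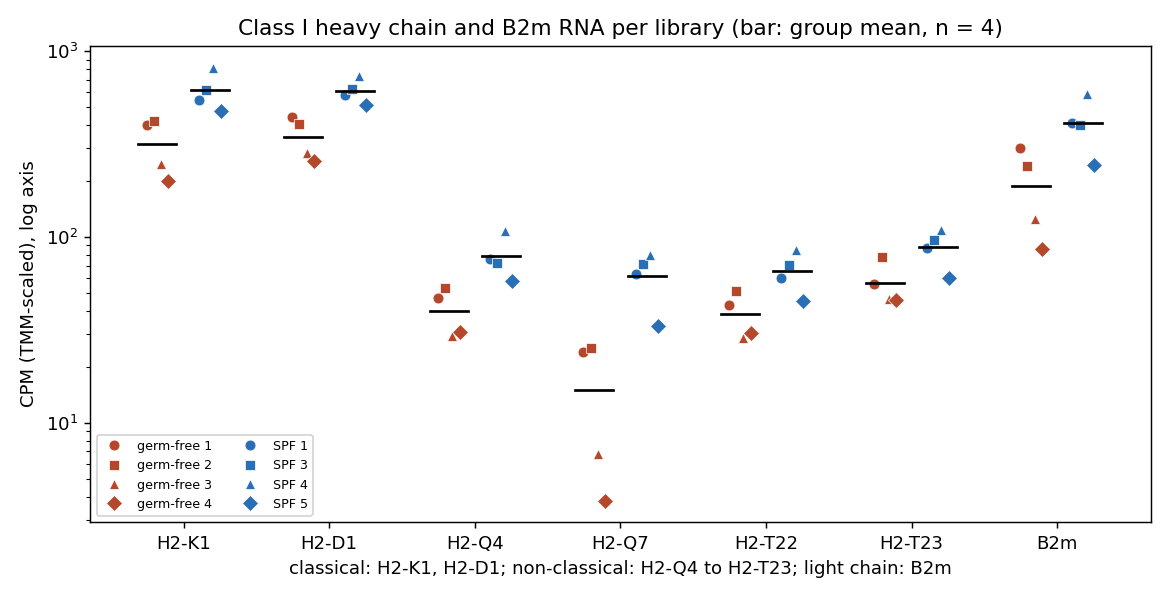
Level of each member in every library (CPM scaled by TMM, log axis), germ-free libraries in red left of SPF libraries in blue, with a bar at the group mean of 4 libraries. H2-K1, H2-D1, H2-Q4 and H2-Q7 show no overlap between the groups, while H2-T22, H2-T23 and B2m overlap in 1 of 16 pairs of libraries.

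H2-D1 encodes the classical D heavy chain (ENSMUSG00000073411, GRCm38 chromosome 17, 35262730 to 35267499, plus strand). It was at 442, 408, 282 and 256 CPM in germ-free libraries 1 to 4, against 580, 629, 731 and 516 CPM in SPF libraries 1, 3, 4 and 5. Every germ-free library lay below every SPF library, with germ-free 4 the lowest and SPF 4 the highest. H2-D1 fell to 347 ± 91.7 CPM in germ-free mice, against 614 ± 90.7 CPM in SPF mice (mean ± SD). On the log2 scale this was a fold change of −0.82, with a standard error (SE) of 0.19 and an adjusted p of 0.0406 by edgeR. Its spread within groups was the smallest among the members in both groups, a coefficient of variation of 26.4% in germ-free and 14.8% in SPF libraries. With 1 library left out the log2 fold change stayed between −0.98 and −0.70. The call held without germ-free 1 (adjusted p = 0.0141 by edgeR) and ended without each of the other 7 libraries. Without germ-free 3, the library rich in fibroblast markers, the log2 fold change was −0.74 (adjusted p = 0.0823 by edgeR).

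H2-K1 encodes the classical K heavy chain (ENSMUSG00000061232, chromosome 17, 33996017 to 34000347, minus strand). It was at 402, 419, 247 and 201 CPM in germ-free libraries 1 to 4, against 549, 619, 816 and 474 CPM in SPF libraries 1, 3, 4 and 5. The groups did not overlap here either, but germ-free 1 and 2 lay close to SPF 5. The means were 317 ± 109.7 CPM in germ-free and 615 ± 147 CPM in SPF mice, and the log2 fold change of −0.95 ± 0.29 did not pass (adjusted p = 0.123 by edgeR). The H2-K1 difference was larger than that of H2-D1, with a larger SE. Without germ-free 3 the H2-K1 log2 fold change was −0.85, and for the other members apart from H2-D1 it was −0.85 (H2-Q4), −1.79 (H2-Q7), −0.65 (H2-T22), −0.55 (H2-T23) and −0.96 (B2m), so every member stayed lower in germ-free mice without that library.

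Together the classical chains summed to 664 ± 200.1 CPM in germ-free libraries and 1229 ± 237 CPM in SPF libraries, a ratio of 0.541. The germ-free sums of 844, 827, 529 and 457 CPM all lay below the lowest SPF sum of 990.3 CPM. As a sum over chosen genes it was given no test.

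The non-classical chains had lower levels, and none of the 4 passed the test by edgeR, while each had an unadjusted p under 0.05, as 19.5% of all tested genes did. Their sum was 149.8 ± 47.8 CPM in germ-free and 294 ± 76.7 CPM in SPF libraries, a ratio of 0.510. The sums overlapped, since germ-free 2 reached 208 CPM and SPF 5 stood at 196 CPM.

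H2-Q7 encodes the Qa-2 antigen, a heavy chain that can be anchored in the membrane by a lipid (ENSMUSG00000060550, chromosome 17, 35439155 to 35443773, plus strand). It was at 24.1, 25.3, 6.78 and 3.81 CPM in germ-free libraries 1 to 4, against 63.1, 71.5, 79.5 and 33.3 CPM in SPF libraries 1, 3, 4 and 5. No germ-free library reached the lowest SPF library, and the germ-free libraries themselves differed by 6.64-fold. Germ-free 4 rested on 41 counts, against 1045 in SPF 3. The means were 14.996 ± 11.3 CPM in germ-free and 61.8 ± 20.2 CPM in SPF mice. This was the largest difference among the members, a log2 fold change of −2.03 ± 0.65, and also the one with the largest SE (adjusted p = 0.157 by edgeR).

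H2-Q4, another Q-region heavy chain (ENSMUSG00000035929, chromosome 17, 35379617 to 35385290, plus strand), was at 46.8, 53.1, 29.4 and 30.6 CPM in germ-free libraries 1 to 4, against 76.5, 72.5, 108 and 57.7 CPM in SPF libraries 1, 3, 4 and 5. The groups did not overlap, and germ-free 2 came nearest to SPF 5. The log2 fold change was −0.97 ± 0.25 (adjusted p = 0.0688 by edgeR), the smallest adjusted p among the members after H2-D1.

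H2-T22 encodes a T-region heavy chain that mouse gamma-delta T cell receptors can bind without a peptide (ENSMUSG00000056116, chromosome 17, 36037128 to 36042747, minus strand). It was at 42.9, 51.3, 28.5 and 30.3 CPM in germ-free libraries 1 to 4, against 60.1, 70.4, 85.5 and 45.0 CPM in SPF libraries 1, 3, 4 and 5. Germ-free 2 lay above SPF 5, the only pair out of order, and the log2 fold change was −0.77 ± 0.24 (adjusted p = 0.117 by edgeR).

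H2-T23 encodes the heavy chain of Qa-1, which displays leader peptides of other class I chains to receptors of natural killer cells (ENSMUSG00000067212, chromosome 17, 36029773 to 36032855, minus strand). It was at 56.0, 78.3, 46.4 and 45.5 CPM in germ-free libraries 1 to 4, against 87.1, 95.9, 109 and 60.1 CPM in SPF libraries 1, 3, 4 and 5. Again germ-free 2 exceeded SPF 5 and no other pair was out of order. Its log2 fold change of −0.64 ± 0.22 was the smallest of the members (adjusted p = 0.155 by edgeR). Without germ-free 2 it was −0.84 and passed (adjusted p = 0.0451 by edgeR).

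B2m encodes the shared light chain and lies outside the MHC (ENSMUSG00000060802, chromosome 2, 122147686 to 122153083, plus strand). It was at 303, 241, 125 and 85.8 CPM in germ-free libraries 1 to 4, against 410, 401, 586 and 245 CPM in SPF libraries 1, 3, 4 and 5. Germ-free 1 lay above SPF 5, and the other 15 of 16 pairs had the SPF library higher. The means were 189 ± 100.7 CPM in germ-free and 410 ± 139 CPM in SPF mice. Although its log2 fold change of −1.12 was beyond that of the classical chains, its SE of 0.47 left it short of the threshold (adjusted p = 0.263 by edgeR). With 1 library left out it ran from −1.45 without germ-free 1 to −0.88 without germ-free 4, and 0 of these 8 fits called it.

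Close paralogs can share reads, and the extent differed by member. Of all words of 50 bases in the GENCODE M21 transcripts of a member, the share found also in a transcript of another gene was 34.5% for H2-T22, 26.4% for H2-Q7, 21.8% for H2-Q4, 13.6% for H2-T23, 12.8% for H2-D1, 9.63% for H2-K1 and 0% for B2m. The main partners were H2-T10 for H2-T22 (31.2% of its words) and H2-Q10 and H2-Q5 for H2-Q7 (14% and 8.74%). The value of B2m therefore did not rest on shared words, while those of H2-T22 and H2-Q7 may hold reads of their neighbours.

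Per kilobase of annotated exon, B2m had the highest level and H2-Q7 the lowest in both groups. Scaled this way, the mean levels in germ-free libraries were 219.7 CPM per kilobase for B2m, 135 for H2-D1, 108 for H2-K1, 19.6 for H2-T23, 15.4 for H2-Q4, 11.2 for H2-T22 and 3.52 for H2-Q7. In SPF libraries they were 477 CPM per kilobase for B2m, 238 for H2-D1, 209 for H2-K1, 30.5 for H2-T23, 30.3 for H2-Q4, 19.1 for H2-T22 and 14.5 for H2-Q7. Each gene exceeded the next in this order in 4 of 4 libraries of either group, except that H2-T23 exceeded H2-Q4 in 2 of 4 SPF libraries, so that pair was not separated there. Exon lengths pooled all annotated transcripts, which lowers the level of genes with many long isoforms.

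The members moved together from library to library within the groups as well. In the SPF group, SPF 4 was the highest library for 7 of 7 members and SPF 5 the lowest for 7 of 7. The share of all tested genes with that order was not counted. Genes other than the members, such as Tap2 and Pbk, had profiles as near to that of H2-K1 as H2-D1 had. In the germ-free group, germ-free 2 was the highest for 5 members and germ-free 1 for 2, while germ-free 4 was the lowest for 5 and germ-free 3 for 2. Germ-free 3 and 4 were below their group mean for all 7 members. The averaged deviation of the members from their own means was −0.93 in germ-free 3 and −1.15 in germ-free 4 on the log2(CPM + 1) scale, against −0.10 and −0.02 in germ-free 1 and 2. In SPF libraries 1, 3, 4 and 5 it was 0.53, 0.64, 0.97 and 0.05. The library SPF 5 thus lay nearer to germ-free 1 and 2 than to SPF 4 by this measure. Libraries germ-free 3 and 4 differed in fibroblast markers (651 and 73.5 CPM) and were alike in low class I levels. The part of other cells in the class I values was not tested.

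**Figure D2:**
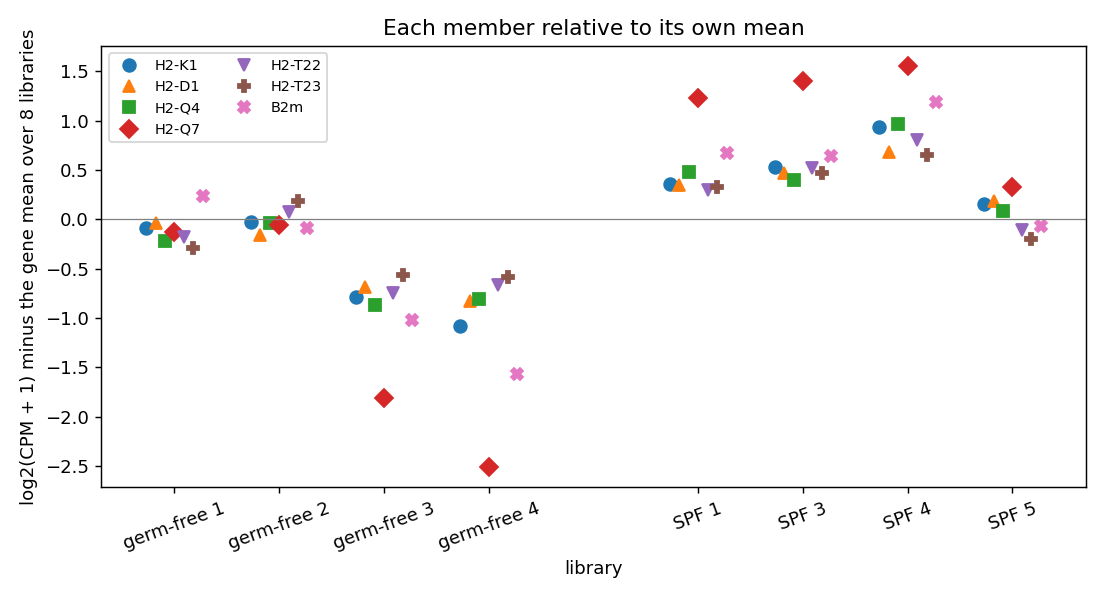
Each member's log2(CPM + 1) minus its mean over the 8 libraries, germ-free libraries left of SPF libraries, 1 symbol per gene. All members are low in germ-free 3 and 4 and high in SPF 4, and H2-Q7 spans the widest range.

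The ratio of a heavy chain to B2m in the same library does not depend on how libraries are scaled, and it shows whether heavy and light chain RNA kept their proportion. H2-Q7 was at 0.0798, 0.105, 0.0545 and 0.0454 counts per B2m count in germ-free libraries 1 to 4, against 0.154, 0.179, 0.136 and 0.136 in SPF libraries 1, 3, 4 and 5. The groups did not overlap for H2-Q7, whose log2 ratio was lower by 1.15 in germ-free libraries (−3.89 ± 0.54 in germ-free and −2.74 ± 0.19 in SPF libraries, SD; exact two-sided permutation p = 0.0286, unadjusted). This p is the smallest that 4 against 4 libraries allow, and 6 ratios were tested, so it would not pass a correction for 6. The other 5 chains had log2 ratios to B2m that differed by 0.23 (H2-K1) to 0.58 (H2-T23), all higher in germ-free libraries and all overlapping, with exact permutation p from 0.143 to 0.429. For H2-K1 the ratio was 1.33, 1.74, 1.97 and 2.34 counts per B2m count in germ-free libraries 1 to 4, against 1.34, 1.54, 1.39 and 1.94 in SPF libraries 1, 3, 4 and 5. Germ-free 1 lay below all SPF libraries and germ-free 4 above them all. As a share of the counts of the 6 heavy chains, H2-Q7 had 0.67 to 2.44% in germ-free and 2.81 to 4.59% in SPF libraries, the one chain of the 6 whose ranges did not overlap. The H2-K1 share was 35.4 to 40.5% in germ-free and 38.8 to 42.3% in SPF libraries, and the H2-Q4 share 4.58 to 5.41% in germ-free and 4.65 to 5.59% in SPF libraries, both with overlap.

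**Figure D3:**
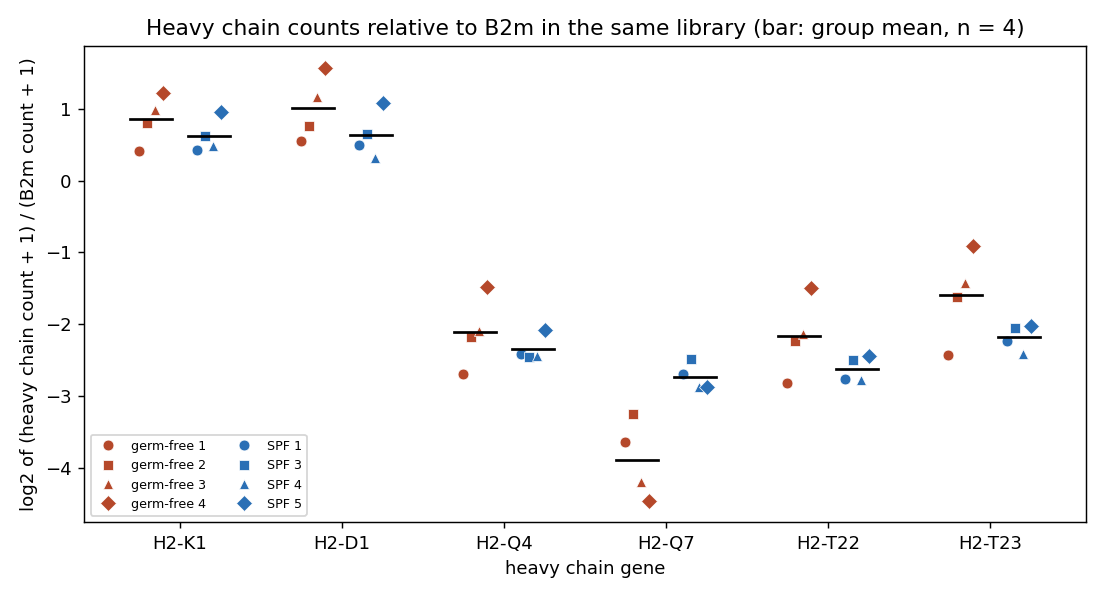
Log2 ratio of each heavy chain's count to the B2m count of the same library (1 added to each count), germ-free libraries in red left of SPF libraries in blue, with a bar at the group mean. Only H2-Q7 has groups that do not overlap, with all 4 germ-free libraries below the SPF libraries.

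The remaining class I heavy chain genes were few and, apart from H2-Q6, weakly expressed. Per kilobase of annotated exon, H2-Q6 averaged 3.59 CPM in germ-free and 13.4 CPM in SPF libraries, near the member H2-Q7 at 3.52 and 14.5 CPM. Of 31 listed, 12 were in the table, 9 were tested and 0 were called by edgeR, with 4 at an unadjusted p under 0.05 (19.5% of all tested genes) and a median log2 fold change of −0.78. DESeq2 called 3 lower (4.3% of all genes it tested) and limma voom 1 (3.61%). The 3 with the smallest p were the pseudogene H2-T-ps (−1.52 ± 0.48), H2-Q5, annotated as a polymorphic pseudogene (−1.42 ± 0.50), and the Q-region gene H2-Q6 (−1.89 ± 0.62). H2-Q6 was at 9.12, 15.05, 3.20 and 2.60 CPM in germ-free libraries 1 to 4, against 33.3, 28.6, 37.0 and 13.04 CPM in SPF libraries 1, 3, 4 and 5. Germ-free 2 lay above SPF 5 for H2-Q6, and otherwise its libraries ranked much as those of H2-Q7.

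Genes that supply and load the peptide had log2 fold changes from −1.40 to 0.24, with 14 of 15 below 0 and a median of −0.46. Of the 15, 1 fell and 0 rose by edgeR, against 2.33% and 1.85% of all tested genes. An unadjusted p under 0.05 was reached by 11 of them, against 19.5% of all genes. DESeq2 called 7 lower (4.3% of all genes) and limma voom 8 (3.61%). The call was Psme2, a subunit of the proteasome activator, at 65.2, 61.9, 54.4 and 55.5 CPM in germ-free libraries 1 to 4, against 75.8, 78.5, 102 and 78.7 CPM in SPF libraries 1, 3, 4 and 5. Its groups did not overlap, and it fell by 0.50 ± 0.11 on the log2 scale (adjusted p = 0.025 by edgeR). That call ended without germ-free 3, germ-free 4, SPF 3 or SPF 4. Larger differences with larger errors, none of them passing by edgeR, were those of the immunoproteasome subunits Psmb8 (−1.40 ± 0.48) and Psmb9 (−1.23 ± 0.35) and the transporter subunit Tap2 (−0.86 ± 0.25). Psmb8 was singled out after its values were seen. It was at 30.2, 30.8, 13.1 and 8.92 CPM in germ-free libraries 1 to 4, against 36.5, 57.7, 84.2 and 41.4 CPM in SPF libraries 1, 3, 4 and 5, without overlap.

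Regulators of class I transcription had log2 fold changes on both sides of 0. Of 18 tested, 1 rose and 0 fell by edgeR, against 1.85% and 2.33% of all tested genes. An unadjusted p under 0.05 was reached by 5, against 19.5% of all genes, and the median log2 fold change was −0.03. DESeq2 and limma voom each called 1 higher (4.06% and 2.85% of all genes) and 1 lower (4.3% and 3.61%). The call was the coactivator gene Ep300, at 197, 226, 209 and 201 CPM in germ-free libraries 1 to 4, against 166, 174, 171 and 145 CPM in SPF libraries 1, 3, 4 and 5. Ep300 rose by 0.34 ± 0.08 on the log2 scale (adjusted p = 0.0341 by edgeR), a call that ended in each of the 8 fits with 1 library left out. Nlrc5, the class I transactivator, was chosen for naming after its values were seen. It was at 41.8, 62.4, 12.0 and 11.7 CPM in germ-free libraries 1 to 4, against 56.3, 58.0, 58.9 and 34.7 CPM in SPF libraries 1, 3, 4 and 5. Germ-free 1 and 2 lay within or above the SPF range and germ-free 3 and 4 below it, so the Nlrc5 log2 fold change of −0.69 ± 0.60 had a wide error (adjusted p = 0.594 by edgeR). Nlrc5 was the 1 gene of this list that limma voom called lower.

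Among 11 genes of interferon receptors, their kinases and the SOCS inhibitors 1 fell and 0 rose by edgeR, against 2.33% and 1.85% of all tested genes. An unadjusted p under 0.05 was reached by 3, against 19.5% of all genes. The call was Ifngr2, the second chain of the interferon gamma receptor. It was at 13.5, 10.8, 13.4 and 17.5 CPM in germ-free libraries 1 to 4, against 18.5, 24.7, 24.8 and 29.1 CPM in SPF libraries 1, 3, 4 and 5, without overlap. Ifngr2 fell by 0.82 ± 0.18 on the log2 scale (adjusted p = 0.0235 by edgeR), a call that ended without germ-free 2, germ-free 3, SPF 3, SPF 4 or SPF 5. Socs3, an inhibitor of cytokine signalling named here after its values were seen, lay in the other direction. It was at 114, 127, 109.4 and 191 CPM in germ-free libraries 1 to 4, against 76.0, 58.1, 97.8 and 73.9 CPM in SPF libraries 1, 3, 4 and 5, without overlap (log2 fold change 0.82 ± 0.21, adjusted p = 0.0724 by edgeR). DESeq2 and limma voom each called Ifngr2 lower and Socs3 higher.

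**Figure D4:**
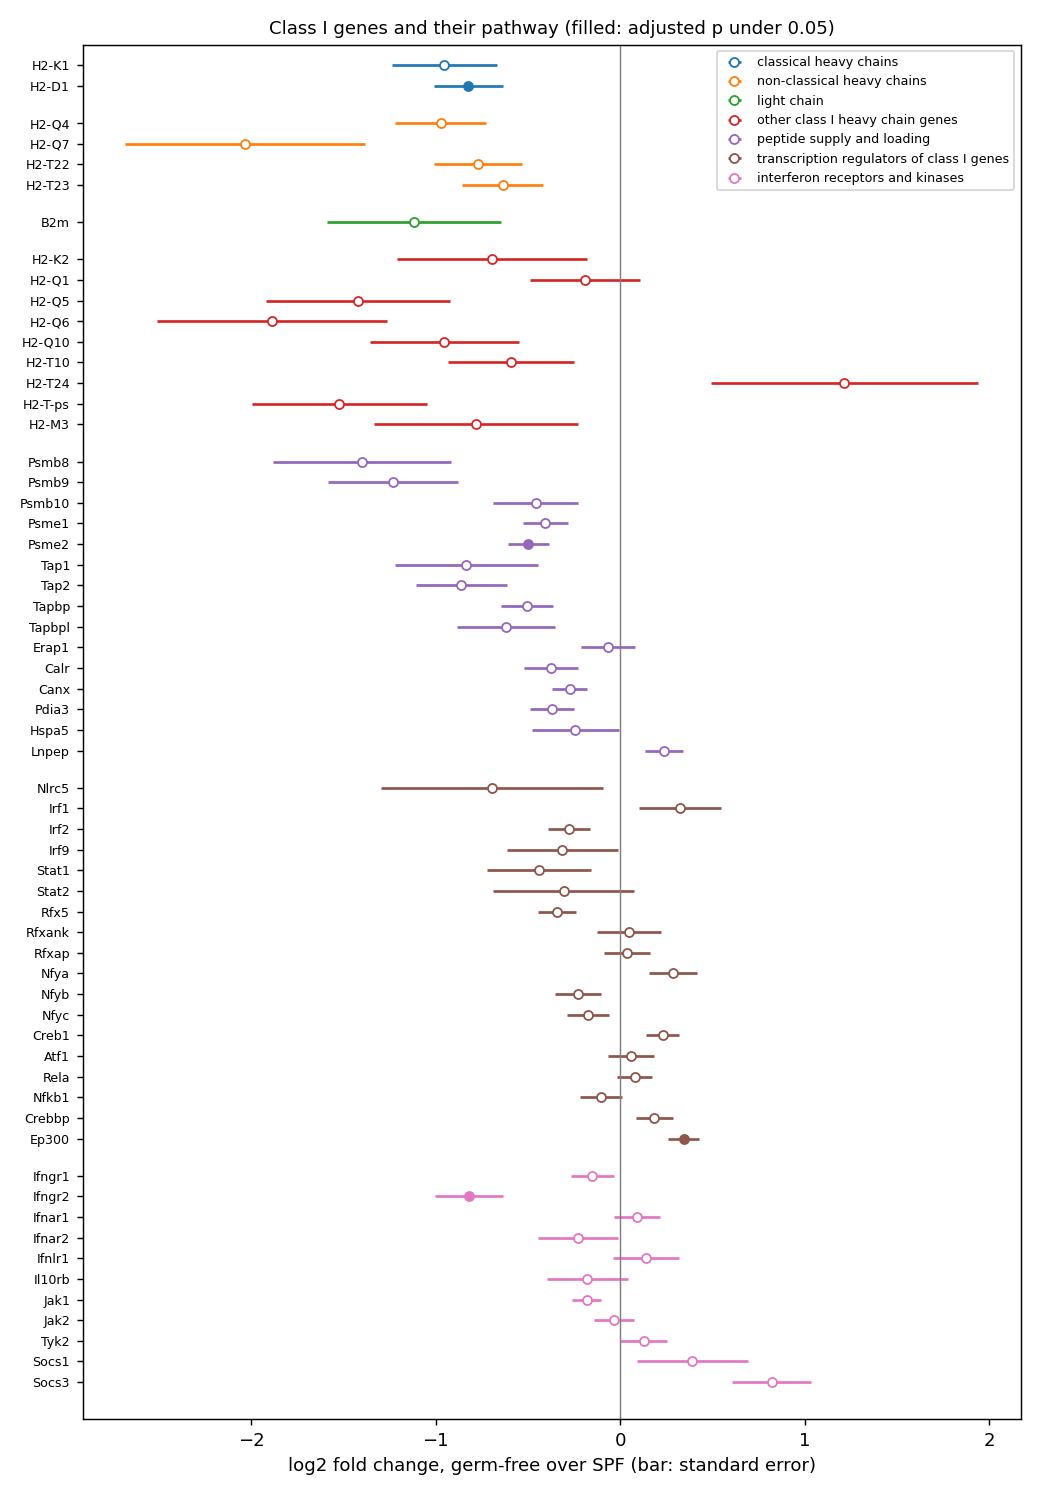
Log2 fold change (germ-free over SPF) with its standard error for the members and 4 related gene lists, filled where the adjusted p was under 0.05. The 7 members lie between −2.03 and −0.64, and the filled points are H2-D1, Psme2 and Ifngr2 (lower) and Ep300 (higher).

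The genes whose pattern over the 8 libraries was nearest to a member's were found by the root mean square distance between centred log2(CPM + 1) profiles, over 9217 other genes that averaged 10 CPM or more. Nearest to H2-K1 were the peptide transporter subunit Tap2 (distance 0.12), the histone genes H3c4 (0.12) and H4c12 (0.12), the mitotic kinase gene Pbk (0.12) and Cdk1 (0.15), against a median distance of 0.64. Among the members, H2-Q4 (0.13) and H2-D1 (0.14) were as near. H2-Q7 lay farther from H2-K1 (0.79), although its libraries ranked in the same order. The distance also grows with the size of the differences, and those of H2-Q7 were larger (log2 fold change −2.03 against −0.95). Nearest to B2m were the immunoproteasome subunit Psmb9 (0.14), the histone genes H2bc15 (0.17), H2bc7 (0.22) and H2bc14 (0.25), and the transporter subunit Tap1 (0.28), against a median of 0.86. The member nearest to B2m was H2-K1 (0.28).

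Immune cells carry class I molecules in quantity, and their markers were low in these libraries. The 12 leukocyte markers in the table summed to 1.54 to 18.3 CPM in germ-free and 2.44 to 14.5 CPM in SPF libraries. The highest sum was in germ-free 2, where the pan-leukocyte gene Ptprc was at 13.1 CPM, against 0.147 to 1.09 CPM in the other germ-free libraries and 0.291 to 1.60 CPM in SPF libraries. S100a8, a neutrophil and keratinocyte gene, was at 0 in all 4 germ-free libraries and at 0, 0.753, 10.16 and 9.69 CPM in SPF libraries 1, 3, 4 and 5. The class II gene H2-Ab1, a marker of antigen-presenting cells, was at 0.320 to 3.02 CPM in germ-free and 1.75 to 4.89 CPM in SPF libraries. The 11 such markers in the table summed to 45.6 to 60.3 CPM in germ-free and 49.4 to 80.2 CPM in SPF libraries, most of it from Mfge8, which averaged 45.5 CPM in germ-free and 48.6 CPM in SPF libraries. All 5 of these markers that passed the filter had log2 fold changes below 0, the direction of the class I genes, with a median of −0.96, and each of edgeR, DESeq2 and limma voom made 0 calls among them. The other markers of this list in the table did not pass the filter. They averaged under 1 CPM in each group, and their means differed in both directions. H2-DMb1, which helps load class II molecules, was at 1.69, 0.726, 1.15 and 1.11 CPM in germ-free libraries 1 to 4, against 3.26, 3.15, 2.06 and 2.48 CPM in SPF libraries 1, 3, 4 and 5. Its groups did not overlap (log2 fold change −1.22 ± 0.44, adjusted p = 0.136 by edgeR), and it was the 1 of these 5 with an unadjusted p under 0.05. The log2 fold changes of H2-Ab1 and of the class II chaperone gene Cd74 were −1.23 ± 0.66 and −0.96 ± 0.62. Those of H2-DMa and Mfge8 were −0.57 ± 0.46 and −0.09 ± 0.15. Fibroblast and endothelial markers lay in the opposite direction, with 6 of 6 tested genes above 0 in each list. Of the endothelial genes, edgeR called 2 higher in germ-free libraries, against 1.85% of all tested genes. They were Emcn, at a mean of 1.94 CPM in germ-free libraries, and Tie1, at 4.58 CPM (adjusted p = 0.00469 and 0.0133 by edgeR). DESeq2 called 5 higher (4.06% of all genes) and limma voom 1 (2.85%). Of the fibroblast genes, DESeq2 called 1 higher, and edgeR and limma voom 0. Among leukocyte markers DESeq2 called 1 lower (4.3%). The 1 leukocyte marker that passed the filter of edgeR was Lyz2, which lay above 0 (log2 fold change 2.30 ± 1.24, adjusted p = 0.333 by edgeR). Lyz2 was near the floor, at a mean of 1.07 CPM in germ-free and 0.208 CPM in SPF libraries. The part of any of these cells in the class I differences was not tested.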

How the data were processed

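RNA of sorted buccal epithelial cells was sequenced in 4 germ-free and 4 SPF libraries. Per the labels' protocols, libraries were made with a stranded total RNA kit with ribosomal RNA depletion. The deposited counts are raw whole numbers per gene, per the file headers. The submitters' processing notes name the build GRCm38 and, without roles, DESeq2 (1.22.2), HTSeq (0.6.0), TopHat2 (2.1.1), cutadapt (1.18) and bcl2fastq (2.18.0.12). The strand setting and the handling of reads that fit several genes are not given in the sources used here. The authors' normalized signals are counts divided by 1 size factor per library, and their deposited log2 fold changes, Wald score and p-values run SPF over germ-free.

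Here counts were filtered with edgeR's filterByExpr (minimum count 10, minimum total 15), which left 15098 of 22911 genes, scaled by TMM and tested with robust glmQLFit and glmQLFTest with group as the only term. Genes were called at a Benjamini-Hochberg adjusted p under 0.05 over all tested genes. Fold changes used a prior count of 0.125, and the SE was taken from the F statistic. Single ratios were tested by exact permutation. The members, the lists and the naming rule were chosen with earlier results of these data known. The rule named all members, the called genes of each list or else its 3 smallest p-values, and the 5 nearest profiles. Markers of cell types were named from those averaging 1 CPM or more in either group, without the 3 smallest p-values of each list. The procedure was checked on simulated counts, drawn with the same dispersion for every gene and with independent libraries. That check did not cover members as variable as H2-Q7 or genes that move together by library. Alternatives were other scalings and filters, DESeq2, limma voom, a fit blocked on replicate number, and fits lacking 1 library each. The tools were DESeq2 1.42.0, limma 3.58.1 and edgeR 4.0.16, run in R 4.3.3. Depth bears on counting error only, and the spread between replicate libraries was larger than that error.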

Additional observations from a re-analysis of the deposited data

Results flagged for a closer look

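The ratio of H2-Q4 to B2m had 1 SPF library far from the others. SPF 5 had 0.236 H2-Q4 counts per B2m count, and SPF 1, 3 and 4 had 0.187, 0.181 and 0.184, so that its gap to the nearest library was 0.891 of the range of the group, above the critical value of Dixon's test for 4 samples. The germ-free libraries spread more widely, from 0.155 in germ-free 1 to 0.358 in germ-free 4. Of 26 groups of values checked this way 1 was marked, and chance marks about 1 in 20.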

How the results depend on the processing

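All 112 alternative log2 fold changes of the 7 members were below 0, in fits that drew on the same libraries. Of these, 84 kept their side of the threshold, 18 passed it newly and 10 lost the H2-D1 call. H2-D1 was called with DESeq2 size factors, with upper-quartile factors and with at least 1 CPM in 4 libraries; without a filter its adjusted p was 0.0712 by edgeR. The number of members called was 6 by DESeq2, 7 by limma voom and 0 without a filter, and 0 to 1 with 1 library left out. Over all genes 631 were called, and 1352 by DESeq2, 975 by limma voom and 284 to 688 with 1 library left out (284 without SPF 3, 286 without germ-free 4, 301 without SPF 4, 318 without SPF 5 and 379 without germ-free 3). In the pathway lists 3 were called, 15 by DESeq2, 13 by limma voom and 0 to 5 with 1 library left out. By edgeR these were 1 of 15 peptide supply genes, 1 of 18 regulators and 1 of 11 interferon receptor genes. The other class I and class I-like lists had 0 of 9 each. Over all genes edgeR called 2.33% lower and 1.85% higher, DESeq2 4.3% and 4.06%, and limma voom 3.61% and 2.85%. With 1 library left out there were 5 without germ-free 1 or SPF 1 and 3 without germ-free 2. There was 1 without germ-free 3, germ-free 4 or SPF 5, and 0 without SPF 3 or SPF 4. Of the 6 ratios to B2m, 1 had an exact p under 0.05, and 0 to 3 did with 1 library left out: 3 without germ-free 1 and 0 without any SPF library. The sums of classical and non-classical chains moved by less than 1 SD under every scaling and with any library left out.

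Numbers 1, 3 and 4 occur in both groups. Over these 6 libraries a replicate block gave 315 calls over all genes and 3 members (H2-Q4, H2-T22 and H2-T23), and the same libraries without the block, a fit added after seeing the data, gave 350 calls and 3 members. Deviations of same-numbered libraries had correlations across genes of 0.19, −0.08 and −0.07. Those of differently numbered libraries ran from −0.18 to 0.11. With 3 same-numbered pairs a partial pairing cannot be told from none. Both fits leave out germ-free 2 and SPF 5. The depth was enough for 41 counts or more of each member in every library. The causes of these differences were not tested.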

Other observations

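Class I-like genes outside the H2 complex had no shared direction. Of 17 listed, 10 were in the table, 9 were tested and 0 were called by edgeR, with 5 at an unadjusted p under 0.05 (19.5% of all tested genes) and 5 below 0. DESeq2 called 1 lower (4.3% of all genes) and limma voom 0. The 3 with the smallest p were Mill1 (log2 fold change −3.26 ± 1.20), Mr1, which presents microbial vitamin B metabolites to mucosal T cells (−0.51 ± 0.20), and Fcgrt, the neonatal receptor for immunoglobulin G (0.67 ± 0.27). Mill1 was near the floor, at 0, 0.066, 0.768 and 0 CPM in germ-free libraries 1 to 4 (13 counts in all). In SPF libraries 1, 3, 4 and 5 it was at 0.102, 2.12, 1.30 and 5.24 CPM. Of its 121 SPF counts, 72 were in SPF 5, and the groups overlapped. Mr1 was at 12.7, 12.3, 13.7 and 8.45 CPM in germ-free libraries 1 to 4, against 18.9, 17.0, 18.6 and 12.7 CPM in SPF libraries 1, 3, 4 and 5. Fcgrt, which also pairs with B2m, was at 7.21, 7.32, 9.34 and 6.41 CPM in germ-free libraries, against 6.21, 5.27, 4.12 and 3.50 CPM in SPF libraries, without overlap. H2-T24, a T-region heavy chain gene named after its values were seen, was the single tested heavy chain gene with a log2 fold change above 0 (1.216 ± 0.72, adjusted p = 0.381 by edgeR).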
